A study of Homo sapiens with 6 samples.

Results

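The mitosis and G2/M genes described here are 58 genes of chromosome condensation, spindle assembly, the spindle checkpoint, chromosome separation and cytokinesis, whose transcripts normally peak late in the cell cycle. They were taken by gene symbol from a list of mitosis and G2/M genes, and all 58 were found among the 29185 genes of the deposited table. All 58 also passed the filter on low counts, which left 15803 genes for testing. The comparison was between SKOV3 cells, a human ovarian cancer cell line, that stably expressed a short hairpin RNA against the transcription factor KLF5 (sh-KLF5, 3 libraries) and SKOV3 cells that carried a control hairpin (sh-NC, 3 libraries). The hairpin against KLF5 was delivered by lentivirus in a vector that also carries EGFP and a puromycin resistance gene. Stable lines were selected with puromycin. The methods of the study do not say how the control line was made. The sample labels give the genotype of the control cells as WT, whereas the design text calls them sh-NC. Whether the control cells shared the vector and the selection with the silenced cells is therefore not known. Nothing states that either group held more than a single line. No drug treatment is given for either group. Nothing in the labels states that the libraries of a group came from separate cultures, so each p-value measures only the spread between these libraries, which may be technical.

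In dividing cells, most of these genes are kept silent in G0 and G1 by the DREAM complex and are switched on in G2 by the MuvB core together with B-MYB and FOXM1. The DREAM and MuvB complexes bind a short promoter element called the cell cycle genes homology region (CHR), and NF-Y binds the CCAAT boxes that often lie upstream of it. Ki-67, the product of MKI67, is the usual histological marker of proliferating tumor cells, and survivin, Aurora kinases and PLK1 have been pursued as drug targets in cancer.

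Between 15852319 and 17543896 reads per library had been assigned to genes. The values are normalized counts, which are the reads of a gene divided by 1 factor per library. KLF5 itself was measured at 4371, 4425 and 4494 normalized counts in sh-NC 1, 2 and 3, and at 1745, 1440 and 1436 in sh-KLF5 1, 2 and 3. The silenced cells thus kept 34.8% of the control level, with a log2 fold change of -1.53 ± 0.12 (SE). Of the 9 ovarian carcinoma markers examined, 8 were listed, and their summed level in normalized counts was 53804 to 65811 among the sh-NC libraries and 28390 to 38849 among the sh-KLF5 libraries. The summed markers of fibroblasts reached 596.3 to 955.3 in sh-NC and 258.7 to 593.2 in sh-KLF5, those of leukocytes 151.7 to 223.5 and 193.5 to 386.2, and those of endothelial cells 73.6 to 88.1 and 46.1 to 84.4. In the leukocyte list 2 of the 4 listed markers, and in the endothelial list 1 of 4, had no more than 3 reads in any library. The part of these markers in the results was not tested.

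The promoters were examined first, since a shared element is the best known common feature of these genes. RefSeq windows (GRCh38.p14) from 250 bases before to 50 bases after a transcription start were present for 49 of the 58 genes, as 64 windows. The other 9 genes were AURKA, BIRC5, BUB3, FOXM1, KNL1, RACGAP1, TPX2, TTK and UBE2C. The CHR letters TTTGAA or TTCGAA occurred on either strand in 67.2% of the 64 windows, against 16.4% of all 35116 RefSeq windows of this length. At least 1 window held them in 40 of the 49 genes. The CCAAT letters were in 71.9% of the windows, against 34.6% of all windows. The GC box letters GGGCGG, which SP and KLF factors can bind, were in 76.6% against 45.0%, and E2F letters (TTTGGCGC, TTTCGCGC or TTTCCCGC) were in 6.25% against 2.74%. In the windows of 44 genes of G1/S transition and DNA replication the proportions were the other way round, with CHR letters in 3.33% and E2F letters in 40.0%. A match of this kind describes the letters of a window and does not show that a factor was bound.

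Part of the CHR letters lay close to the start site. Of 58 matches in the 64 windows, 27 began within the 60 bases before the start, in 24 genes. Where windows of the same gene overlap, a site can be counted more than once. The same count was not made over all promoters, so it is not known whether this nearness is particular to these genes. The 5 stretches printed here run from 120 bases before to 20 bases after the start of the 5 genes that held a CHR match and had the smallest p-values, so that the arrangement can be read directly. Capitals mark the CHR letters and CCAAT on either strand, so that an element on the opposite strand reads ATTGG for CCAAT or, as in KIF11, TTCAAA for the CHR. Neighboring or overlapping matches run together in capitals, as in MKI67 and HMMR.
PRC1: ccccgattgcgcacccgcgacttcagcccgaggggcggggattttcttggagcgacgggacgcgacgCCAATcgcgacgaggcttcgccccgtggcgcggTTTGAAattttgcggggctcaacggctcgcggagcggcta
HMMR: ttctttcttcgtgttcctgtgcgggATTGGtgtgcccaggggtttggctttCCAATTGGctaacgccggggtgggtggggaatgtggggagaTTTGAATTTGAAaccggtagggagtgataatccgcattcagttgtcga
MKI67: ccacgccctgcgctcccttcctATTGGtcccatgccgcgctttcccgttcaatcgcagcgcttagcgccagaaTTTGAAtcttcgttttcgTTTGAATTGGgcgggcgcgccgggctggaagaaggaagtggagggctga
KIF11: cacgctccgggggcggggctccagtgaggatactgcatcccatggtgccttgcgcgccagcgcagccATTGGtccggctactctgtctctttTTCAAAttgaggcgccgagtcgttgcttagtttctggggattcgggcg
ESPL1: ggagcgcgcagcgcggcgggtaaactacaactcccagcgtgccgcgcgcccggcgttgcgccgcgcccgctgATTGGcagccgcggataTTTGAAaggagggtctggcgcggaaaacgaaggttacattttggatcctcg
The stretch of PRC1 is chr15:90994516-90994655 on the minus strand, that of HMMR chr5:163460512-163460651 on the plus strand, and that of MKI67 chr10:128126404-128126543 on the minus strand. KIF11 is shown at chr10:92593010-92593149 and ESPL1 at chr12:53268179-53268318, both on the plus strand. In these 5 genes the CHR letters began between 47 and 20 bases before the start. HMMR and MKI67 each held 2 CHR matches, whereas PRC1, KIF11 and ESPL1 each held a single one, with a CCAAT box upstream. The window of CCNA2, the gene with the smallest p-value, held CCAAT 56 bases before the start and no exact CHR letters. Among the 49 genes with a window, the median log2 fold change was -0.20 for the 40 with CHR letters and -0.16 for the 9 without.

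In sh-KLF5 1 and 2, but not in sh-KLF5 3, the mitosis and G2/M genes showed a small downward shift. Their median log2 levels relative to the sh-NC mean were -0.23, -0.35 and 0.019 in sh-KLF5 1, 2 and 3. The pooled values that follow combine these unlike libraries. With limma at an adjusted p under 0.05, 6 of the 58 genes fell (MKI67, CCNA2, KIF11, TPX2, PRC1 and ESPL1) and 1 rose (HMMR). This was 12.1% of the genes, against 12.9% of all 15803 genes tested. The 6 that fell were 10.3%, against 6.85% of all genes called lower, and the 1 that rose was 1.72%, against 6.04% called higher. The proportion of these genes that passed the test was therefore about that of the whole transcriptome. With limma run without trend or robust fitting, CCNA2 and PRC1 were the only genes called (3.45%, against 7.89% of all genes), and MKI67, KIF11, TPX2, ESPL1 and HMMR did not pass. At an unadjusted p under 0.05, 16 genes (27.6%) differed, against 26.2% of all genes, of which 15 (25.9%) were lower, against 13.4%, and 1 (1.72%) was higher, against 12.8%. The log2 fold change was below 0 in 49 of the 58 genes (84.5%), compared with 50.3% of all genes. Its median was -0.19, compared with -0.0023 over all genes, and the middle 50% of the 58 genes lay between -0.31 and -0.093. PRC1 had the lowest value, -1.30, and HMMR the highest, 0.55. With the fold limit used in the study added, a log2 change beyond 1 in either direction, PRC1 was the only gene called (1.72%, against 5.28% of all genes). For 56 of the 58 genes (96.6%) the 95% interval lay wholly between -1 and 1, against 73.8% of all genes. In bulk RNA, fewer cells in G2 and M and less of each transcript per cell cannot be told apart.

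**Figure D1:**
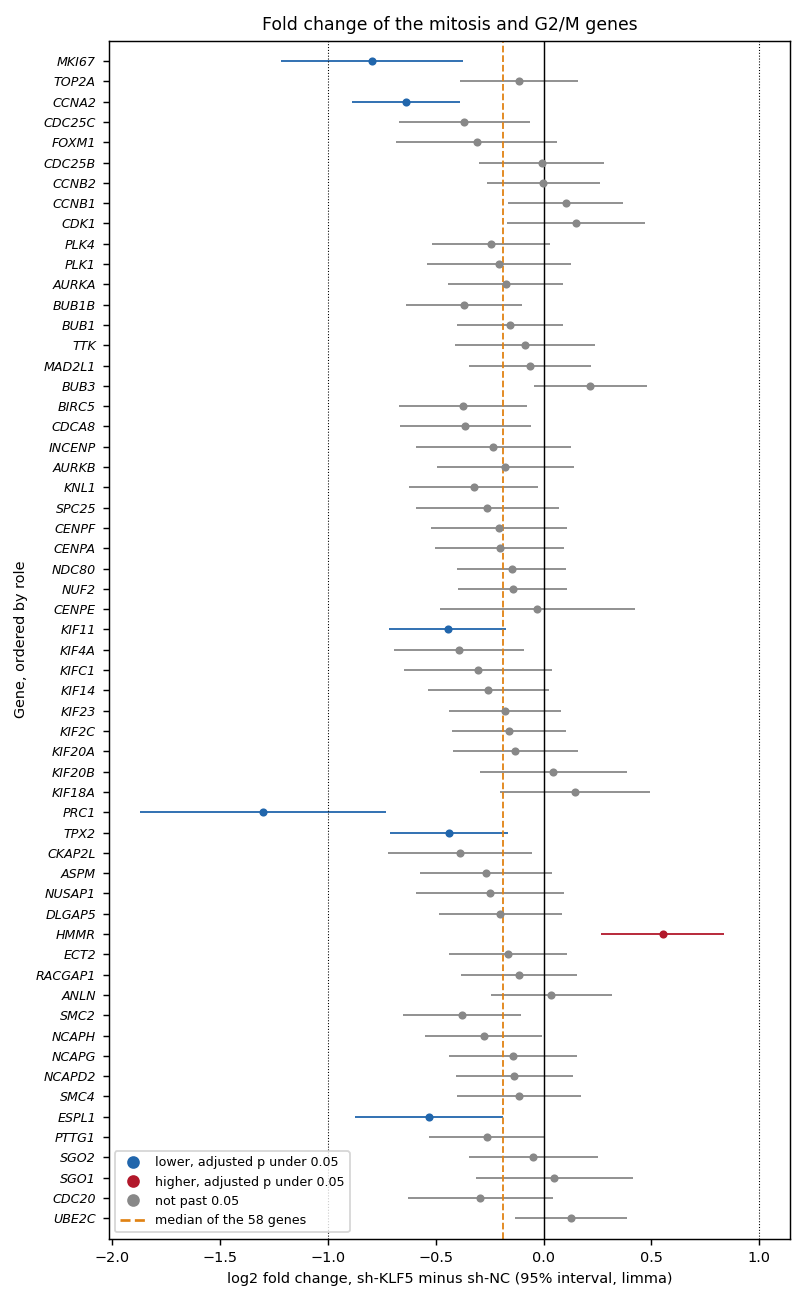
Log2 fold change of the 58 genes, sh-KLF5 minus sh-NC, with its 95% interval from limma; genes are ordered by role and colored by the test, dotted lines mark the fold limit and the dashed line the median. Most points lie slightly left of 0, around the median of -0.19, with PRC1 at -1.30 and HMMR at 0.55 as the extremes.

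MKI67 encodes Ki-67, which coats mitotic chromosomes and keeps them apart. The 3 control libraries, sh-NC 1, 2 and 3, had 18428, 21355 and 18862 normalized counts of it, and the silenced libraries 7769, 11465 and 15929. All sh-KLF5 libraries were below all sh-NC libraries, but the spread among them was wide, from 7769 to 15929. This was a log2 fold change of -0.80 ± 0.20 (SE, n = 3 per group, limma adjusted p = 0.0149). Without sh-NC 2 the adjusted p of limma was 0.0639 and without sh-NC 3 it was 0.0522. TOP2A, the topoisomerase that untangles sister chromatids, had a 95% interval from -0.39 to 0.16 and did not pass the test. The gene MKI67 lies at chr10:128096659-128126385 on the minus strand (GRCh38).

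CCNA2 (chr4:121816444-121823933, minus strand) encodes cyclin A2, the partner of CDK2 in S phase and of CDK1 at entry into mitosis. It was measured at 1939, 2108 and 2157 normalized counts in sh-NC, as opposed to 1410, 1172 and 1413 in sh-KLF5. The groups were well separated and the sh-KLF5 libraries lay close together, including sh-KLF5 3. The log2 fold change was -0.64 ± 0.12, with a 95% interval of -0.89 to -0.39 (limma adjusted p = 0.00138). This call held under every alternative setting and without any single library, with values from -0.68 to -0.55 when 1 library was left out. CCNB1, which encodes cyclin B1, the cyclin that drives CDK1 in mitosis, gave 3903, 3942 and 4434 in sh-NC and 4938, 3747 and 4558 in sh-KLF5. Its groups overlapped, and the 95% interval of its log2 change was -0.16 to 0.37 (limma adjusted p = 0.654). Cyclins A2 and B1 therefore gave intervals that did not overlap, although a difference between the 2 genes was not tested. The other 5 genes of mitotic entry were CCNB2, CDK1, CDC25B, CDC25C and FOXM1. None of them passed the test, with log2 changes from -0.37 to 0.15, and at an unadjusted p CDC25C alone lay under 0.05. FOXM1, the activator of G2/M promoters, was 3301, 3739 and 4122 in sh-NC and 2145, 3153 and 3956 in sh-KLF5, and its adjusted p was 0.290 with limma.

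PRC1 (chr15:90966038-90995629, minus strand) encodes the protein that bundles the antiparallel microtubules of the central spindle. It was listed at 78.2, 82.8 and 63.7 normalized counts in sh-NC, as opposed to 22.4, 32.0 and 36.1 in sh-KLF5. The highest sh-KLF5 library was well below the lowest sh-NC library. The log2 fold change was -1.30 ± 0.27 (limma adjusted p = 0.00344), and it stayed between -1.44 and -1.11 when 1 library was left out, past the threshold each time. This value is uncertain, since 58.4% of the exonic bases of PRC1 in GENCODE release 29 are also exons of AC068831.7, a same-strand gene model, or of the antisense gene PRC1-AS1. How the authors' counting treated reads that lie in more than 1 gene is not given in the sources used here. Per kilobase of exon PRC1 was also the lowest of the 58 genes, with 13.6 normalized counts in sh-NC. AC068831.7 itself was measured at 286.8, 322.2 and 276.9 in sh-NC and at 199.8, 191.1 and 235.6 in sh-KLF5, a log2 change of -0.50 ± 0.15 (limma adjusted p = 0.0393). PRC1-AS1 did not exceed 27.9 normalized counts in any sh-NC library or 15.5 in any sh-KLF5 library and did not pass the test (limma adjusted p = 0.165). The PRC1 values themselves rested on 22 to 84 reads per library.

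TPX2 (chr20:31739271-31801805, plus strand) encodes the protein that activates Aurora A on the spindle and nucleates microtubules near chromosomes. It reached 6615, 7182 and 7988 normalized counts in sh-NC, compared with 5011, 4796 and 6346 in sh-KLF5. The groups did not overlap, although the gap between sh-NC 1 and sh-KLF5 3 was narrow. TPX2 fell with a log2 fold change of -0.44 ± 0.13 (limma adjusted p = 0.0343). Leaving out sh-NC 1, sh-NC 2, sh-NC 3 or sh-KLF5 2 gave limma adjusted p-values of 0.0607, 0.127, 0.165 and 0.135. With 2014 normalized counts per kilobase of exon in sh-NC, TPX2 had the highest level per length of the 58 genes, followed by TOP2A (1796), CDC20 (1631), CCNB1 (1600) and MKI67 (1526).

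HMMR (chr5:163460203-163491945, plus strand) encodes the hyaluronan-mediated motility receptor, which also binds spindle microtubules and helps place TPX2. It was the only one of the 58 genes called higher. From 1194, 1332 and 1129 normalized counts in sh-NC it went to 1892, 1468 and 2036 in sh-KLF5. Every sh-KLF5 library was above every sh-NC library, with sh-KLF5 2 the nearest to the controls. Its log2 fold change was 0.55 ± 0.13 (limma adjusted p = 0.0109), or 147.6% of the control mean. Without sh-NC 1 the limma adjusted p was 0.0510 and without sh-NC 3 it was 0.0754. The other spindle microtubule proteins, ASPM, NUSAP1, DLGAP5 and CKAP2L, did not pass the test, with log2 changes from -0.39 to -0.20. For NUSAP1, 62.2% of the exonic bases are shared with another same-strand gene model, so its level is uncertain too.

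KIF11 (chr10:92593286-92655395, plus strand) encodes Eg5, the kinesin that pushes the spindle poles apart. It was measured at 2943, 3422 and 3217 normalized counts in sh-NC, whereas sh-KLF5 had 2463, 1973 and 2654. The groups did not overlap, with sh-KLF5 2 the lowest library. KIF11 fell with a log2 fold change of -0.44 ± 0.13 (limma adjusted p = 0.0307). It no longer passed without sh-NC 1, sh-NC 2, sh-NC 3 or sh-KLF5 2, where the limma adjusted p-values were 0.0589, 0.173, 0.112 and 0.133. KIF23, a kinesin of the central spindle, was 5950, 6269 and 6044 in sh-NC and 5689, 4577 and 5971 in sh-KLF5, and did not pass (limma adjusted p = 0.384). Of the 9 kinesins, 7 had a log2 change below 0, and the range over all 9 was -0.44 to 0.14.

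ESPL1 (chr12:53268299-53293643, plus strand) encodes separase, the protease that cuts cohesin at the onset of anaphase. For this gene the sh-NC libraries gave 1388, 1772 and 1889 normalized counts and the sh-KLF5 libraries 897.9, 1185 and 1447. Here the groups overlapped, since sh-KLF5 3 was above sh-NC 1. Its log2 fold change was -0.53 ± 0.16 (limma adjusted p = 0.0401), and the adjusted p-values without sh-NC 2, sh-NC 3, sh-KLF5 1 or sh-KLF5 2 were 0.168, 0.196, 0.0649 and 0.0969. The other genes of chromatid cohesion did not pass the test. These were PTTG1, which encodes securin, the inhibitor of separase, and SGO1 and SGO2, the shugoshins that protect centromeric cohesin.

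**Figure D2:**
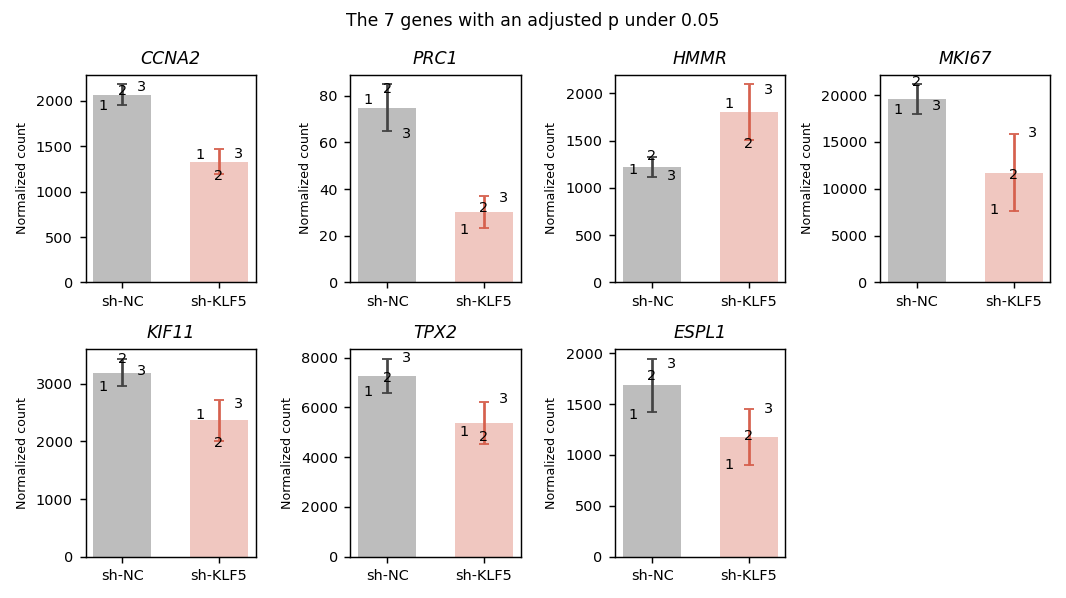
Normalized counts of the 7 genes with an adjusted p under 0.05 in limma; bars are group means with the SD of 3 libraries, digits mark the replicate number and every axis starts at 0. In 6 genes the groups do not overlap, whereas in ESPL1 sh-KLF5 3 (1447) is above sh-NC 1 (1388).

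The remaining roles, with a checkpoint, kinetochore, kinase, passenger, condensin, cytokinesis or anaphase function, hold 29 genes. None of these passed the test in either direction with limma, where 12.9% of all genes passed. These roles are the ones left after every role with a called gene was described. The count of 0 therefore follows from the grouping and is not a result about these functions. At an unadjusted p under 0.05 in limma, 6 of the 29 differed, against 26.2% of all genes. At an adjusted p edgeR called 0, against 13.2% of all genes, and DESeq2 1, which was SMC2, against 14.3%. These counts are affected by the same grouping. The spindle checkpoint holds anaphase until every kinetochore is attached. Within it, BUB1B, which encodes BubR1, was 1867, 1831 and 1688 in sh-NC and 1320, 1230 and 1652 in sh-KLF5. The groups did not overlap, but sh-KLF5 3 was close to the controls, and the log2 change of -0.37 ± 0.13 gave a limma adjusted p of 0.069. BUB3, its partner at the kinetochore, was 2651, 2575 and 2689 in sh-NC and 3625, 2667 and 2983 in sh-KLF5. In sh-KLF5 1 and sh-KLF5 3 it was above all controls, in sh-KLF5 2 within their range, and the 95% interval was -0.046 to 0.48. BUB1, TTK and MAD2L1 had log2 changes between -0.16 and -0.062.

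The chromosomal passenger complex corrects faulty attachments and starts cytokinesis. BIRC5, which encodes survivin, was 2161, 2403 and 2691 in sh-NC and 1823, 1558 and 2259 in sh-KLF5. INCENP, the scaffold of the complex, was 2232, 2647 and 2550 in sh-NC and 1532, 2179 and 2781 in sh-KLF5. In both genes sh-KLF5 3 overlapped the controls, and the limma adjusted p-values were 0.094 and 0.418. All 4 genes of the complex had negative log2 changes, from -0.37 to -0.18.

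Kinetochores join centromeres to microtubules, and all 7 centromere and kinetochore genes among the 58 had negative log2 changes, from -0.32 to -0.030. KNL1, the platform on which checkpoint proteins assemble, was 3242, 3684 and 2897 in sh-NC and 2790, 2109 and 3006 in sh-KLF5 (limma adjusted p = 0.155). CENPF, a large protein of the outer kinetochore, was 11044, 12105 and 9643 in sh-NC and 7950, 8761 and 12080 in sh-KLF5, so that sh-KLF5 3 was at the level of the highest control. In CENPA and NUF2 all sh-KLF5 libraries were below all sh-NC libraries without passing the test.

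Among the kinases of the centrosome and spindle, PLK4, which starts centriole duplication, was 877.1, 948.9 and 917.8 in sh-NC and 811.3, 653.0 and 871.3 in sh-KLF5. PLK1, which acts from mitotic entry to cytokinesis, was 2186, 2793 and 3150 in sh-NC and 1874, 2362 and 2820 in sh-KLF5. PLK4 did not overlap between the groups and PLK1 did, and neither passed, with limma adjusted p-values of 0.253 and 0.439. AURKA, the kinase that TPX2 activates, also lay below 0 with an interval that included it.

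Condensin compacts chromosomes, and the 5 condensin genes among the 58 had log2 changes from -0.38 to -0.11. SMC2, an ATPase subunit shared by both condensins, was 2531, 2783 and 2223 in sh-NC and 2014, 1654 and 2147 in sh-KLF5, which did not overlap (limma adjusted p = 0.068). NCAPD2 was 6073, 6596 and 6951 in sh-NC and 5159, 5777 and 7059 in sh-KLF5, where sh-KLF5 3 was the highest library of all. For cytokinesis, ECT2, which activates RhoA at the cleavage site, was 3781, 4073 and 3656 in sh-NC and 3845, 2828 and 3675 in sh-KLF5. ANLN, which encodes the actin-binding protein anillin, was 4817, 5005 and 4392 in sh-NC and 5161, 3972 and 5572 in sh-KLF5. Both genes overlapped between the groups, and the log2 change of ANLN, 0.037 with a 95% interval of -0.24 to 0.32, changed sign when single libraries were left out.

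The anaphase-promoting complex marks securin and cyclin B for destruction. CDC20, its mitotic activator, was 2979, 3140 and 3852 in sh-NC and 2096, 2715 and 3446 in sh-KLF5, which overlapped (limma adjusted p = 0.265). UBE2C, the ubiquitin-conjugating enzyme of the complex, had a log2 change of 0.13 and a 95% interval of -0.13 to 0.39.

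The sh-KLF5 libraries differed from each other in these genes more than the sh-NC libraries did. The level of each gene was taken as log2(normalized count + 1) minus its sh-NC mean. The median level over the 58 genes was -0.23 in sh-KLF5 1, -0.35 in sh-KLF5 2 and 0.019 in sh-KLF5 3, whereas it was -0.067, 0.044 and 0.025 in sh-NC 1, 2 and 3. Over all tested genes the median level was within 0.01 of 0 in every library. Thus sh-KLF5 3 stood at the level of the controls. The KLF5 count was 1436 in sh-KLF5 3 and 1440 in sh-KLF5 2. Whether the level of KLF5 had a part in the difference between these libraries was not tested. Of the 58 genes, 44 were below their sh-NC mean in sh-KLF5 1, 55 in sh-KLF5 2 and 28 in sh-KLF5 3. The highest of the 3 sh-KLF5 libraries was sh-KLF5 3 in 48 genes, sh-KLF5 1 in 10 and sh-KLF5 2 in 0. Together the 58 genes took up 1.02%, 1.12% and 1.02% of all normalized counts in sh-NC and 0.873%, 0.826% and 1.03% in sh-KLF5. The SD of the log2 values was larger in sh-KLF5 than in sh-NC for 52 of the 58 genes (89.7%), against 67.2% of all genes, and its median was 0.24 in sh-KLF5 and 0.13 in sh-NC, compared with 0.22 and 0.14 over all genes. For the other mitotic genes described further on, the SD was larger in sh-KLF5 in 88.7%.

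**Figure D3:**
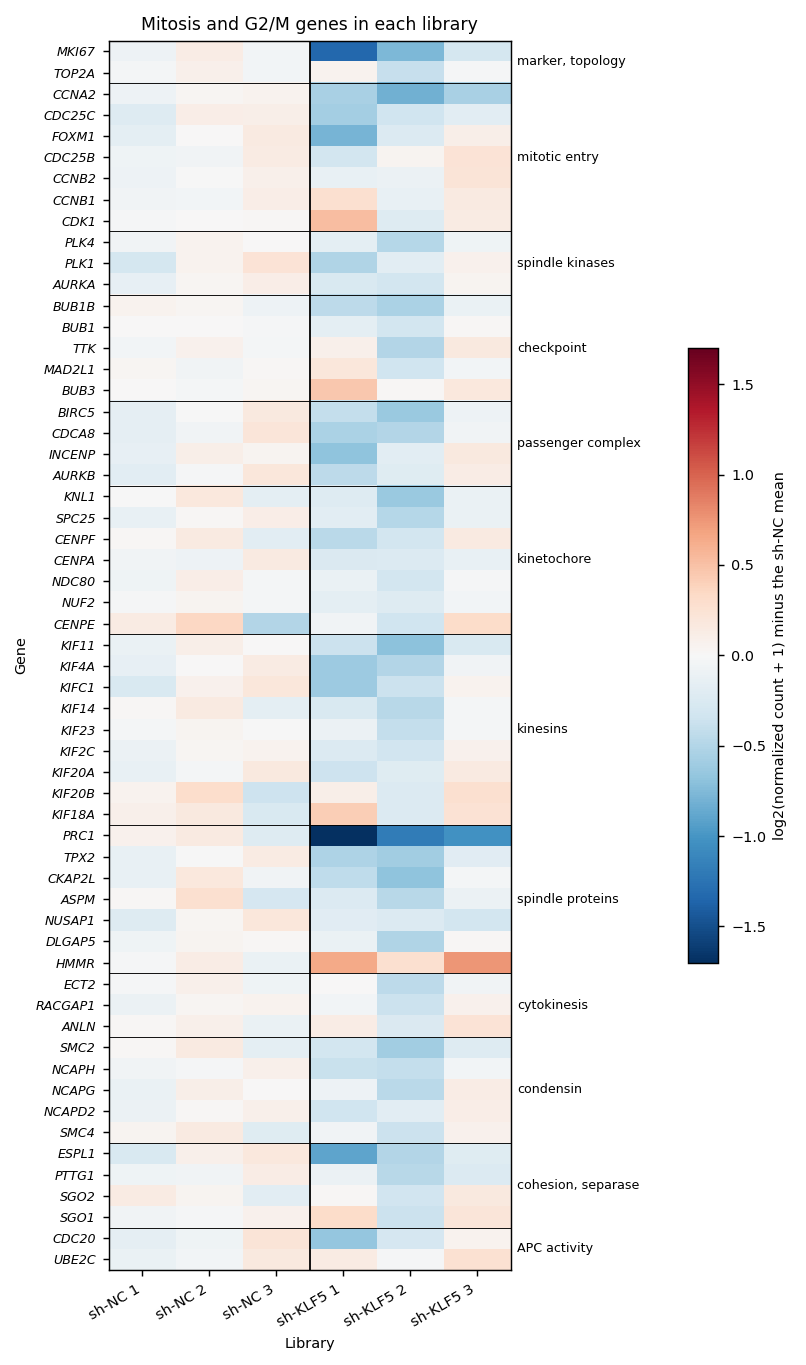
Level of the 58 genes in the 6 libraries, as log2(normalized count + 1) minus the sh-NC mean of each gene, with genes grouped by role and blue for lower, red for higher. Blue prevails in sh-KLF5 1 and sh-KLF5 2, with medians of -0.23 and -0.35, and not in sh-KLF5 3, with a median of 0.019.

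The number of genes that passed the test depended on which library was left out. Without sh-KLF5 3, 15 genes were called lower and 1 higher (27.6% of 58, against 12.9% of all genes). The genes gained were BIRC5, BUB1B, CDC20, CDCA8, CKAP2L, FOXM1, KIF4A, KIFC1 and SMC2. Without sh-KLF5 2, 3 genes were called lower and 1 higher (6.90%, against 9.97% of all genes), and without sh-KLF5 1, 8 lower and 1 higher (15.5%, against 17.0%). Leaving out sh-NC 1, 2 or 3 left 4, 2 and 2 genes called lower, and 0, 1 and 0 called higher. These were 6.90%, 5.17% and 3.45% of the 58 genes, while the share of all genes called was 8.33%, 7.49% and 8.45%. The median log2 change over the 58 genes was -0.28 without sh-KLF5 3 and -0.12 without sh-KLF5 2, and it was below 0 each time. CCNA2 and PRC1 were called each time. In 11 of the 58 genes (19.0%) all sh-KLF5 libraries were below all sh-NC libraries, against 15.9% of all genes, and in HMMR alone (1.72%) they were all above, against 15.4%. The 11 genes were BUB1B, CCNA2, CENPA, KIF11, MKI67, NUF2, PLK4, PRC1, PTTG1, SMC2 and TPX2.

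The deviations of single libraries also moved with the GC content of the transcripts. The 58 genes are GC-poor, with a median of 42.4% over the longest transcripts, compared with 48.3% over all tested genes. Across the 58 genes, Spearman's rho between GC content and the deviation of a library from its own group mean was -0.72, -0.55 and 0.79 in sh-NC 1, 2 and 3 and -0.70, 0.77 and 0.46 in sh-KLF5 1, 2 and 3. Over all tested genes the values were -0.24, -0.17 and 0.34 in sh-NC and -0.49, 0.47 and 0.20 in sh-KLF5. These are correlations across genes, which are not independent replicates and share the libraries. The 3 deviations of a gene within a group also sum to 0, so the 3 values of a group depend on each other. The 2 genes with the lowest levels in sh-KLF5 1 were PRC1 (-1.69) and MKI67 (-1.33). Their GC content, 48.1% and 48.3%, was above the median of the 58 genes and near that of all tested genes. The log2 fold change of the 58 genes had a rho of -0.34 with GC content, compared with -0.036 over all genes. When the GC trend over all tested genes was subtracted from each library by a lowess fit, the median log2 change over the 58 genes was -0.19 as before. Whether this also took away the stronger trend among the 58 genes was not tested. The number called became 9 lower and 1 higher, against 18.2% of all genes, and it included all 7 genes of the uncorrected comparison together with BUB1B, KNL1 and SMC2.

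**Figure D4:**
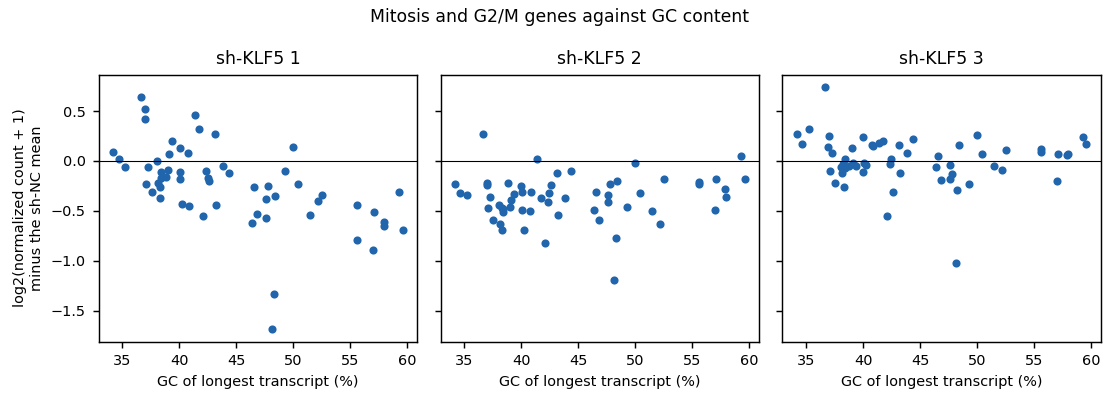
Level of the 58 genes (log2(normalized count + 1) minus the sh-NC mean) against the GC content of the longest transcript in sh-KLF5 1, 2 and 3, with 1 point per gene. In sh-KLF5 1 the level tends to fall with GC content, while in sh-KLF5 2 most genes lie below 0 and in sh-KLF5 3 they lie around 0.

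Other genes of mitosis, from a list of 71 that shares none of the 58, moved much like them. Of these, 8 fell (11.3%, against 6.85% of all genes) and 0 rose at an adjusted p under 0.05 in limma, with 24 lower (33.8%, against 13.4% of all genes) and 1 higher (1.41%, against 12.8%) at an unadjusted p under 0.05. No gene of this list was called higher by edgeR or DESeq2 either, which called 13.2% and 14.3% of all genes in either direction. Their median log2 change was -0.21, and their median levels were -0.19, -0.33 and -0.060 in sh-KLF5 1, 2 and 3. CDC23, a subunit of the anaphase-promoting complex, fell most, from 1274, 1306 and 1259 normalized counts in sh-NC to 637.0, 561.8 and 596.6 in sh-KLF5, a log2 change of -1.10 ± 0.11. In contrast to most of the 58 genes, CDC23 was at a similar level in all 3 sh-KLF5 libraries. The other named genes of this list that fell were MASTL, ZWINT, SKA2, ANAPC1 and CDCA2, with log2 changes from -0.62 to -0.45. ANAPC1 encodes another subunit of the anaphase-promoting complex, ZWINT and SKA2 act at the kinetochore, and MASTL encodes the Greatwall kinase of mitotic entry.

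The genes of the preceding phase gave a larger share of calls. Of 53 G1/S and DNA replication genes, 22 fell (41.5%, against 6.85% of all genes) and 1, CCND1, rose (1.89%, against 6.04%). Their median log2 change was -0.37, and their median levels were -0.33, -0.39 and -0.22 in sh-KLF5 1, 2 and 3. In sh-KLF5 3, therefore, the G1/S genes lay below the controls, whereas the mitosis and G2/M genes did not. Among them DTL, CDC45, CDC6 and CHAF1B, which act in the licensing, firing and chromatin assembly of replicating DNA, fell with log2 changes from -1.04 to -0.66. CCND1, which encodes cyclin D1, was 1629, 1379 and 1511 in sh-NC and 2619, 2515 and 2714 in sh-KLF5, a log2 change of 0.80. The difference between these lists was not tested.

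**Figure D5:**
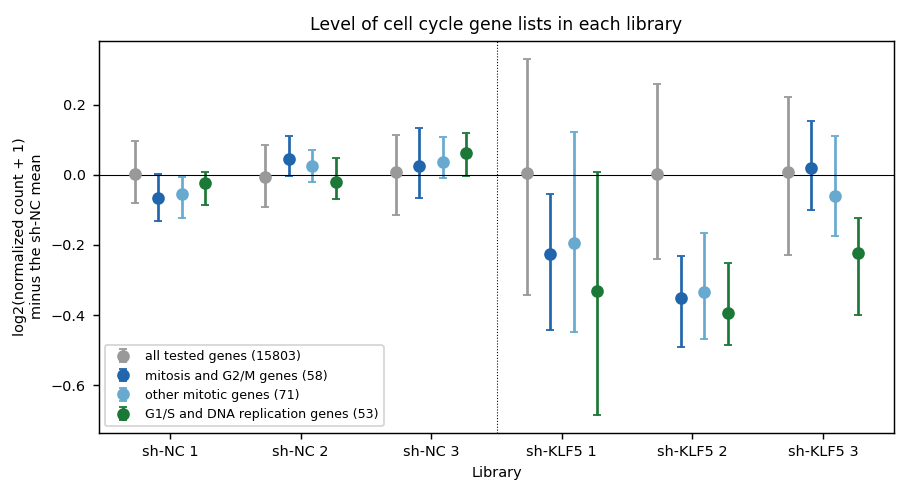
Median level (points) with the middle 50% of genes (bars) of 4 gene lists in each library, as log2(normalized count + 1) minus the sh-NC mean. The mitosis and G2/M genes are lowest in sh-KLF5 2 (-0.35) and at the control level in sh-KLF5 3 (0.019), where the G1/S and DNA replication genes stay at -0.22.

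Regulators of these genes were also examined. Of 24 transcription regulators of the cell cycle, 3 fell (12.5%, against 6.85% of all genes) and 1 rose (4.17%, against 6.04%). E2F1 and E2F2, activators of G1/S genes, fell by 0.58 and 0.80 on the log2 scale, and LIN52, a subunit of the MuvB core, by 0.54. E2F7, a repressor of E2F targets, rose by 0.37. Of 8 CDK inhibitors, 3 rose (37.5%, against 6.04% of all genes) and 1 fell (12.5%, against 6.85%). CDKN1A encodes p21, an inhibitor of cyclin-dependent kinases. It was 1759, 1321 and 1532 normalized counts in sh-NC but 6529, 5829 and 4022 in sh-KLF5, a log2 change of 1.81 ± 0.16. CDKN2A and CDKN2B rose by 0.52 and 0.75, while CDKN1C, which encodes p57, fell by 2.09. Whether any of these changes had a part in the levels of the mitosis and G2/M genes was not tested.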

How the data were processed

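Poly(A) RNA of 6 SKOV3 libraries (3 sh-NC, 3 sh-KLF5) had been sequenced. The submitters' processing notes name HISAT2 2.0.5, featureCounts 1.5.0-p3, DESeq2 1.20.0 and hg38, whereas the strand setting is not given in the sources used here. The authors deposited a normalized signal per gene and library, that is, reads divided by 1 size factor per library. They also deposited group means, log2 fold changes and p-values, which were not used here. Every column of per-sample values was used.

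Division by the smallest value above 0 gave whole reads for 100% of values (tolerance 1e-06). The groups were compared with limma 3.58.1 (trend, robust) in R 4.3.3 on log2(normalized count + 1), after edgeR's filterByExpr (minimum count 10), with Benjamini-Hochberg adjustment over 15803 genes. A gene was called at an adjusted p under 0.05. A fold change on this scale understates the change of low genes. Libraries with the same number in both groups were not treated as pairs in the main comparison. Their deviations from the group means correlated at 0.059, 0.033 and 0.050. For libraries with different numbers the correlations were all negative, from -0.057 to -0.0011. Whether the libraries were paired is not settled by these values, and a replicate block is among the alternatives. On simulated counts for this comparison (15694 genes), limma recovered 73.5% of 98 genes with a log2 change of 1 and 96.7% of 92 with a change of 2, with 5 false calls. The simulation held no smaller changes and no library effect that depends on GC content. It therefore does not give the recovery of changes below 1, or the false calls under such an effect. Alternatives were edgeR 4.0.16 and DESeq2 1.42.0 on the recovered reads, other scalings, pseudocounts and filters, plain limma, a replicate block and leaving out each library. Values corrected for GC content (lowess, span 0.3) were added after seeing the data. GC content and overlaps came from GENCODE release 29, whose coordinates all 29185 genes have.

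The 58 genes and the other lists were chosen with earlier results of these data known. Values in every library are given for each called gene and, in each role, for the gene with the smallest p and the gene with the highest mean; of other lists, at most 6 called genes with the smallest p are named, and 1 gene is not reported here. FOXM1 was named in addition. Promoters are shown for the 5 genes with the smallest p among those with CHR letters. Figures were drawn with matplotlib 3.10.9.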

Additional observations from a re-analysis of the deposited data

How the results depend on the processing

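The median log2 change of the 58 genes stayed between -0.28 and -0.12 when 1 library was left out, and between -0.19 and -0.18 under the other settings. The number called lower was 2 with limma without trend or robust fitting, and 15 at an unadjusted p under 0.05. It ranged from 2 to 15 without single libraries, and the number called higher from 0 to 1. Plain limma called 0 genes higher and 7.89% of all genes in either direction. By comparison, edgeR and DESeq2 called 1 gene higher each, and 13.2% and 14.3% of all genes in either direction. From 1 to 2 genes passed the fold limit without single libraries. Without a filter on low counts 10 of the 58 were called (17.2%, against 8.81% of all genes). ANLN changed sign, between -0.063 and 0.18, at -0.017 without sh-NC 3 and -0.0080 without sh-KLF5 1.

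Of the other mitotic genes, 2 fell with plain limma, 13 without a filter, 18 with GC-corrected values and 24 at an unadjusted p, while 1 rose at an unadjusted p. Without single libraries 3 to 18 fell and 0 rose. Of the G1/S genes, 9 fell with plain limma and 10 to 26 without single libraries. In either direction, 7.89% of all genes were called with plain limma, 8.81% without a filter and 18.2% with GC-corrected values. The share was 13.2% with edgeR, 14.3% with DESeq2 and 13.1% with a pseudocount of 5. Without single libraries the share of all genes was 7.49% to 17.0%. At an unadjusted p under 0.05 in limma, 13.4% of all genes were lower and 12.8% higher. The number of G1/S genes that rose was 2 with edgeR, DESeq2, a pseudocount of 5, GC-corrected values and an unadjusted p, and 1 to 2 without single libraries.

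With a replicate block, 11 of the 58 genes were called lower, 17 other mitotic genes fell and 2 G1/S genes rose, while 16.9% of all genes were called. With the block on GC-corrected values, 18 of the 58 were lower, 25 other mitotic genes fell and 1 rose, and 2 G1/S genes rose, while 19.6% of all genes were called. The cause of these differences was not tested. Of the 22 genes with values in every library by rule, 244 results under the other settings kept their side of the threshold, 15 newly passed and 5 no longer passed. These 5 were MKI67, TPX2, HMMR, KIF11 and ESPL1 with plain limma, at adjusted p-values of 0.129, 0.149, 0.0953, 0.140 and 0.200. Depth limits PRC1 most, with 22 to 84 reads per library.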
